A study of Mus musculus with 21 samples.

Results

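The genes described here are 10 regulators of the first gap phase (G1) of the cell cycle, followed in germinal centre B cells with and without the RNA-binding protein PTBP1. They were set by gene name and not by a cut on a measured value, but with earlier results of these data known. They are 2 D-type cyclins (Ccnd2, Ccnd3), 2 kinases (Cdk4, Cdk6), 4 kinase inhibitors (Cdkn1a, Cdkn1b, Cdkn2c, Cdkn2d) and 2 retinoblastoma family members (Rb1, Rbl1). Each matched 1 of the 47729 Ensembl gene identifiers in the count files, and all 10 were among the 15789 genes that passed the filter on low counts. The light zone (LZ) and the dark zone (DZ) are the parts of a germinal centre where B cells are selected and where they divide. The cKO mice were CD79acre/+Ptbp1fl/fl and the control mice CD79a+/+Ptbp1fl/fl, all on a C57BL/6 background. Cre sits in 1 Cd79a allele, so deletion follows the B lineage and is not limited to the germinal centre, and the controls carry the floxed alleles without Cre. All mice were immunised with alum-precipitated NP-KLH and used 7 days later. There were 4 groups of 4 mRNA libraries (LZ cKO, LZ control, DZ cKO, DZ control). Spleen cells of 3 to 5 mice that shared genotype and sex were combined before sorting, and each of the 8 pools gave both an LZ and a DZ library, so a library averages over animals. Sort days 1 and 2 were males and sort days 3 and 4 females, and both genotypes were sorted on each day. A further 5 iCLIP libraries, which map where PTBP1 crosslinks to RNA, were made from splenic B cells of females after 48 h in culture with lipopolysaccharide (LPS), a B cell mitogen.

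Passage through G1 is driven by D-type cyclins, which bind and activate CDK4 and CDK6. The active kinases phosphorylate the retinoblastoma (pocket) proteins, which then release E2F factors and allow genes of DNA synthesis to be transcribed. INK4 inhibitors such as p18 and p19 bind CDK4 and CDK6 themselves, while CIP/KIP inhibitors such as p21 and p27 bind cyclin and kinase complexes. In mouse germinal centres cyclin D3 is known for its role in the expansion of dark zone cells, and Myc for marking light zone cells chosen to return to the dark zone.

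Promoter sequences are shown for 3 of the genes, since Ccnd3 differed between zones and Cdk4 and Rbl1 held a motif that few promoters hold. They are the 250 bases before a RefSeq transcript start on GRCm38.p6, written 5′ to 3′ along the gene. The table held 11 promoters for 8 of the 10 genes, and not Ccnd2 or Rb1. Capitals mark CACGTG, the E-box that MYC binds, in Cdk4 (chr10:127063285-127063534, plus strand), TTTCGCGC, a form of the E2F motif, in Rbl1 (chr2:157204535-157204784, minus strand), and CCAAT in the downstream promoter of Ccnd3 (chr17:47593217-47593466, plus strand).
Cdk4: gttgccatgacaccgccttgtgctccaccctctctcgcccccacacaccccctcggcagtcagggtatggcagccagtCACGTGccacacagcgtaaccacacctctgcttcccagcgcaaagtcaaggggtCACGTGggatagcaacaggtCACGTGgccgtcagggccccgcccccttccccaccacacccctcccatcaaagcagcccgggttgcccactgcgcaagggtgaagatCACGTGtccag
Rbl1: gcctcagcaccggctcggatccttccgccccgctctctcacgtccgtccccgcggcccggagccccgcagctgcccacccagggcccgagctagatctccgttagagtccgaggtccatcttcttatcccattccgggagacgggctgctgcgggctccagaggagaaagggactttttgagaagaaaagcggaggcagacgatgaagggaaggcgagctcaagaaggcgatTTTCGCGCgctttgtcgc
Ccnd3: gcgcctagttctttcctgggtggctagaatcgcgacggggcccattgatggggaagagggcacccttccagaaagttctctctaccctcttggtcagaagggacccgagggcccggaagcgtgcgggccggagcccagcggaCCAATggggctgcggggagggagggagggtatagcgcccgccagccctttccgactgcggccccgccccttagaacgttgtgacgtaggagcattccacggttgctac

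Both strands were searched. The Cdk4 window held 4 copies of CACGTG, whose first bases lie 172, 118, 98 and 11 bases before the start. At least 1 copy was present in 6.02% of the 32851 promoters in the table and at least 4 copies in 0.0213%. Of the other windows, that of Cdk6 held 1 copy. The Rbl1 window held 1 E2F motif, 18 bases before the start. Any of the 4 forms searched (TTTCCCGC, TTTCGCGC, TTTGCCGC, TTTGGCGC) was present in 1.86% of promoters, and in none of the other 10 windows of these genes. CCAAT stood 108 bases before the downstream start of Ccnd3, 220 bases before the listed transcript start of Cdkn2d and in 2 places in Cdkn1b. It was present in 33.8% of all promoters. The Cdkn2d window (chr9:21291210-21291459, minus strand) overlaps the gene's span, whose 5′ end is at 21291421, so its listed start lies inside the span. The upstream Ccnd3 window held none of the motifs. CAGCTG or CAGGTG, the E-boxes that TCF3 binds, occurred once in Rbl1 and once in the downstream window of Cdkn1a, against 27.7% of all promoters.

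Gene counts summed to 26823882 to 34240096 per library. Levels are in CPM, counts scaled to library size and by TMM, and fold changes are log2 with their SE. A gene is called changed at a Benjamini-Hochberg adjusted p under 0.05 in edgeR's quasi-likelihood test over all 15789 genes. Ptbp1 itself had 82.5 to 121 CPM in LZ cKO libraries against 353 to 419.8 CPM in LZ control libraries, and 92.1 to 114 CPM in DZ cKO libraries against 416 to 486 CPM in DZ control libraries. The summed level of 5 B cell markers was 6222 to 10498 CPM over all libraries. The 6 LZ markers summed to 2078 to 2620 CPM in LZ libraries and 567 to 804 CPM in DZ libraries, and the 6 DZ markers to 1021 to 1490 CPM in LZ libraries and 1870 to 2358 CPM in DZ libraries. Of the 6 germinal centre markers, Mef2b was at or near 0, with at most 0.13 CPM in any library. Markers of other cells also moved with the groups, and their part in the results below was not tested. The 7 macrophage markers summed to 46.2 to 432 CPM in LZ cKO, 9.67 to 358 CPM in LZ control, 27.8 to 1146 CPM in DZ cKO and 15.3 to 391 CPM in DZ control libraries, and the 4 natural killer cell markers to 27.8 to 88.2, 4.64 to 78.0, 31.0 to 114 and 3.69 to 72.9 CPM in the same order, both highest on sort day 2 in each group. The 5 dendritic cell markers summed to 119 to 153 CPM in LZ cKO and 54.9 to 78.1 CPM in LZ control libraries. In the DZ they summed to 77.7 to 112 CPM in cKO and 61.8 to 73.4 CPM in control libraries. Most of each sum was Flt3 alone, with means of 125, 56.7, 80.1 and 58.7 CPM in the same order. Clec9a went the other way in the LZ, with means of 0.085 CPM in cKO and 0.593 CPM in control cells. The 5 markers of naive and memory B cells summed to 1120 to 2078 CPM in LZ and 318 to 679 CPM in DZ libraries, and the 5 plasma cell markers to 1121 to 2096 CPM in LZ and 2264 to 10632 CPM in DZ libraries. In each of these 5 lists, no marker was at 0 throughout a group. The 5 T cell markers summed to 41.8 to 173 CPM in LZ and 10.1 to 85.3 CPM in DZ libraries. In bulk libraries, a lower share of cells with a transcript and less transcript per cell cannot be told apart.

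Between zones, Ccnd3 and Cdkn2d were lower in the LZ than in the DZ in both genotypes, and none of the 10 genes was called higher. In cKO cells 2 of 10 were called lower, where 9.09% of all genes tested were called (4.18% lower, 4.91% higher). In control cells the same 2 of 10 were called lower, where 7.49% of all genes were called (3.33% lower, 4.16% higher). Between genotypes, edgeR called 0 of 10 genes in the LZ, where 1.08% of all genes were called, and 0 of 10 in the DZ, where 0.627% were called. At an unadjusted p under 0.05 there were 2 genes in the LZ (Rb1, Cdk4), where 13.4% of all genes lay under it, and 0 in the DZ, where 11.4% did. DESeq2 called 1 gene in the LZ (Rb1), where it called 3.57% of all genes, and 0 in the DZ, where it called 2.74%. Between zones DESeq2 called 2 of 10 genes in cKO cells (13.8% of all genes) and 2 of 10 in control cells (10.9%). The sort-day block groups all libraries of a day, but does not model the pool shared by an LZ and a DZ library. With this block the LZ count was 2 (Rb1 higher, Cdk4 lower), where 5.5% of all genes were called. The DZ count was then 0, where 3.27% were called, and the count between zones in cKO cells was 4 (Ccnd3, Cdkn2d, Cdkn2c and Cdk4, all lower), where 17.3% were called. For control cells the count was 3 (Ccnd3 and Cdkn2d lower, Ccnd2 higher), where 13.7% were called.

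**Figure D1:**
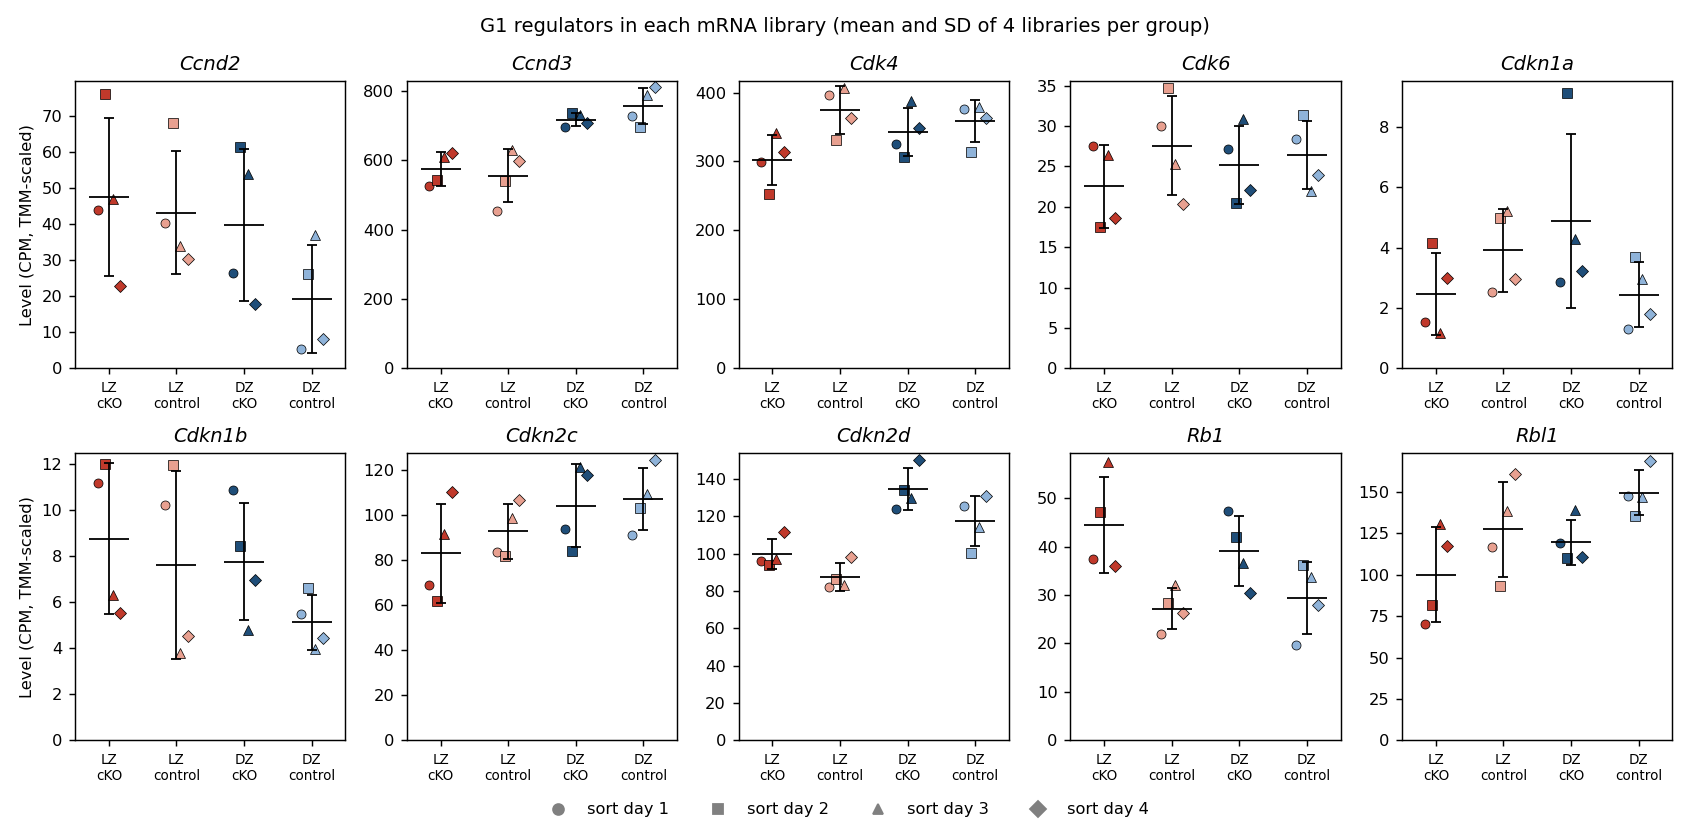
Level of each of the 10 genes in CPM (vertical axes, from 0) in the 16 libraries, by group; markers give the sort day, the horizontal line the mean and the bars the SD of 4 libraries. Ccnd3 and Cdkn2d sit lower in the LZ groups than in the DZ groups without overlap within a genotype, and Rb1 sits higher in LZ cKO than in LZ control libraries.

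Ccnd3 (ENSMUSG00000034165, chr17:47505051-47599689), which encodes cyclin D3, was lower in the LZ than in the DZ in both genotypes. In cKO cells it had 525, 542, 609 and 622 CPM in LZ libraries 1 to 4, against 696, 736, 729.6 and 707 CPM in the matching DZ libraries. In control cells it had 454, 539.5, 629.8 and 599 CPM in LZ libraries, against 727, 697, 788 and 811 CPM in DZ libraries. The zones did not overlap in either genotype, as for 14.3% of all genes in each, and the LZ value was the lower one on 4 of 4 days. The group means were 574 ± 48.1 CPM in LZ cKO and 717 ± 18.7 CPM in DZ cKO cells (SD, n = 4 each), a change of -0.32 ± 0.095 (edgeR adjusted p = 0.0460). They were 556 ± 77.3 CPM in LZ control and 756 ± 52.6 CPM in DZ control cells, a change of -0.44 ± 0.095 (edgeR adjusted p = 0.00842). The call in cKO cells lay close to the threshold. It was lost when any 1 of 13 of the 16 libraries was left out, with an adjusted p of 0.0527 to 0.141, and kept without LZ cKO library 4, LZ control library 1 or LZ control library 3. Without sort day 2 neither call held (-0.28, adjusted p = 0.255 in cKO cells, and -0.47, adjusted p = 0.0528 in control cells). Within 1 sex, with 2 libraries a group, the change in cKO cells was -0.41 in males (adjusted p = 0.122) and -0.22 in females (adjusted p = 0.237). The change in control cells was -0.51 in males (adjusted p = 0.0845) and -0.37 in females (adjusted p = 0.0853). Between genotypes Ccnd3 changed by 0.05 ± 0.095 in the LZ (adjusted p = 0.899) and -0.08 ± 0.095 in the DZ (adjusted p = 0.853), with 95% intervals of -0.15 to 0.25 and -0.28 to 0.13. RefSeq places Bysl over the last 359 bases of the Ccnd3 span and Gm41590 within it. No strand setting of the counting was known, so reads there may have been left out as ambiguous between genes. The pseudogene Ccnd3-ps had 6 to 23 counts per library.

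Ccnd2 (ENSMUSG00000000184, chr6:127125162-127152188), which encodes cyclin D2, varied widely between sort days. Its levels were 44.1, 76.2, 47.1 and 22.8 CPM in LZ cKO libraries 1 to 4, against 40.4, 68.1, 34.0 and 30.5 CPM in LZ control libraries. In the DZ they were 26.4, 61.4, 54.0 and 17.9 CPM in cKO libraries, against 5.48, 26.2, 36.9 and 8.12 CPM in control libraries. The DZ cKO library was the higher one on 4 of 4 days, but the ranges overlapped, and the change of 1.06 ± 0.55 did not pass (edgeR adjusted p = 0.505, 95% interval -0.11 to 2.23). The macrophage marker sum was 534, 1146, 27.8 and 375 CPM in DZ cKO libraries 1 to 4, against 17.9, 391, 15.3 and 43.7 CPM in DZ control libraries, and its part in this difference was not tested. In the LZ the change between genotypes was 0.14 ± 0.54 (adjusted p = 0.955). The change between LZ and DZ was 0.25 ± 0.54 in cKO cells (adjusted p = 0.837) and 1.17 ± 0.55 in control cells (adjusted p = 0.251). With the sort-day block it was 1.42 in control cells and was called (adjusted p = 0.0163), although LZ was higher on 3 of 4 days. RefSeq places 9330179D12Rik over 2800 bases of the Ccnd2 span, so reads there may have been left out as ambiguous between genes.

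Cdk4 (ENSMUSG00000006728, chr10:127063535-127067288), the kinase partner of D-type cyclins whose promoter is printed above, was lower in cKO than in control LZ cells on every sort day. It had 300.0, 253, 341 and 313 CPM in LZ cKO libraries, against 396, 331, 407 and 363 CPM in LZ control libraries. LZ cKO library 3 was above LZ control library 2, so the ranges overlapped. The mean was 302 ± 36.6 CPM in LZ cKO cells, 80.6% of the 374 ± 34.4 CPM in LZ control cells, and the change of -0.31 ± 0.10 did not pass without the block (edgeR adjusted p = 0.182). With the sort-day block it was -0.32 and passed (adjusted p = 0.00619). In the DZ the levels were 326, 307, 388 and 349 CPM in cKO libraries, against 376, 314, 379 and 363 CPM in control libraries, a change of -0.06 ± 0.10 (adjusted p = 0.890, 95% interval -0.29 to 0.16). Between LZ and DZ the change was -0.18 ± 0.10 in cKO cells (adjusted p = 0.324; with the block -0.19, adjusted p = 0.0287) and 0.06 ± 0.10 in control cells (adjusted p = 0.814). The difference between these zone changes was -0.25 ± 0.15 and did not pass (adjusted p = 0.9998). The gene meets its neighbour Tspan31 over 2 bases.

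Cdk6 (ENSMUSG00000040274, chr5:3341004-3531008), the other D-cyclin kinase, had overlapping levels in all groups. They were 27.5, 17.5, 26.4 and 18.6 CPM in LZ cKO libraries, against 30.0, 34.7, 25.3 and 20.3 CPM in LZ control libraries. In the DZ they were 27.2, 20.4, 30.9 and 22.1 CPM in cKO libraries, against 28.4, 31.3, 22 and 24.0 CPM in control libraries. Its 4 changes lay between -0.29 and 0.06, and edgeR adjusted p-values were 0.589 or higher in each of the 4 comparisons.

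**Figure D2:**
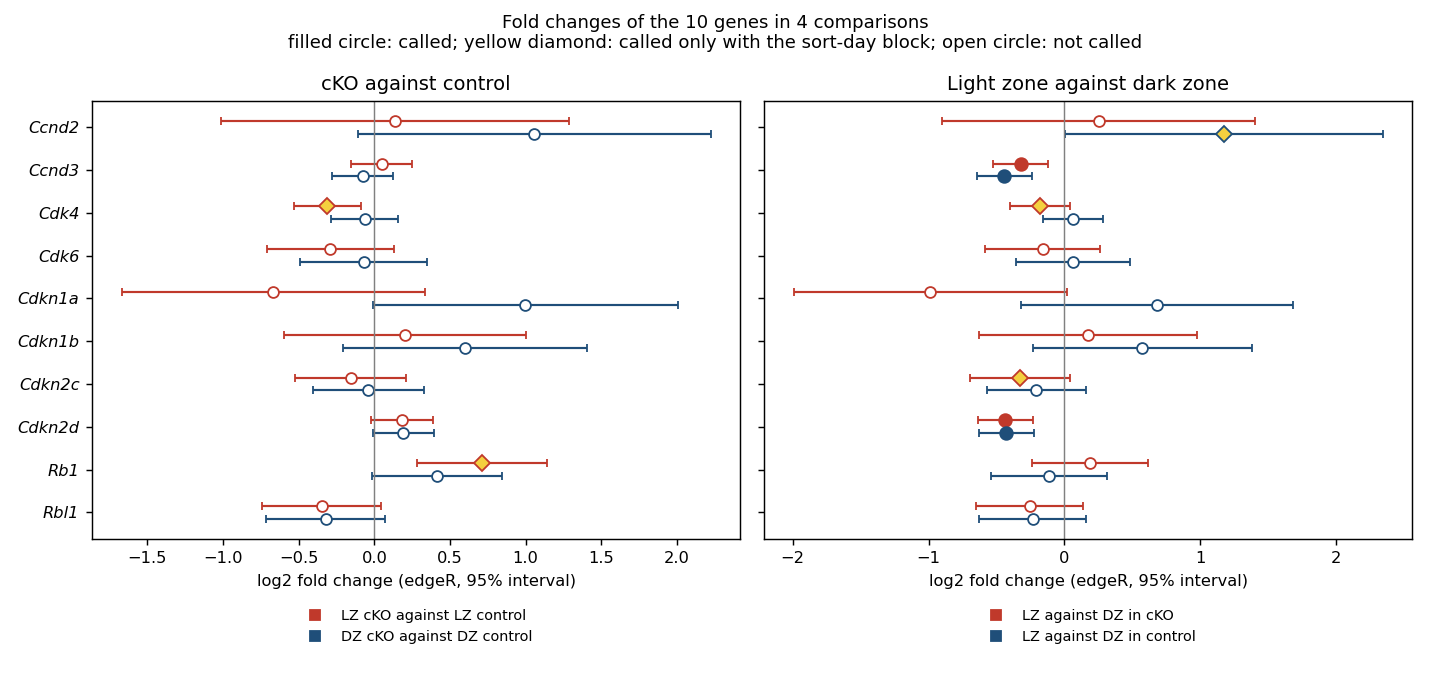
Log2 fold changes (horizontal axes) with 95% intervals for cKO against control in each zone (left) and LZ against DZ in each genotype (right). Filled circles, for Ccnd3 and Cdkn2d between zones, passed an adjusted p under 0.05, and yellow diamonds passed with the sort-day block but not without it.

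Cdkn1a (ENSMUSG00000023067, chr17:29090979-29100722), which encodes p21, a CIP/KIP inhibitor induced by p53, had few counts in every library. Its levels were 1.52, 4.14, 1.19 and 2.98 CPM in LZ cKO libraries, against 2.52, 4.98, 5.2 and 2.96 CPM in LZ control libraries. In the DZ they were 2.87, 9.12, 4.30 and 3.23 CPM in cKO libraries, against 1.31, 3.69, 2.97 and 1.80 CPM in control libraries. The cKO value in the DZ was the higher one on 4 of 4 days with overlapping ranges. The changes between genotypes were -0.67 ± 0.47 in the LZ (edgeR adjusted p = 0.612) and 1.00 ± 0.47 in the DZ (adjusted p = 0.444). The zone change, LZ against DZ, was -0.99 ± 0.47 in cKO cells (adjusted p = 0.226) and 0.68 ± 0.47 in control cells (adjusted p = 0.477). The difference between the zone changes was -1.67 ± 0.67, with an unadjusted p of 0.0243 and an adjusted p of 0.9998 in edgeR, so it did not pass.

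Cdkn1b (ENSMUSG00000003031, chr6:134920401-134925525), which encodes p27, a CIP/KIP inhibitor of resting cells, differed by sort day in all 4 groups. It had 11.2, 12.0, 6.34 and 5.56 CPM in LZ cKO libraries, against 10.2, 12.0, 3.79 and 4.52 CPM in LZ control libraries. In the DZ it had 10.9, 8.46, 4.80 and 6.98 CPM in cKO libraries, against 5.48, 6.63, 3.95 and 4.46 CPM in control libraries. In each of the 4 groups, both male libraries (days 1 and 2) were above both female libraries. The cKO value was the higher one on 4 of 4 days in each zone, with overlapping ranges. In the LZ the log2 difference on day 2 was only 0.005. The change between genotypes was 0.20 ± 0.38 in the LZ (edgeR adjusted p = 0.892) and 0.60 ± 0.38 in the DZ (adjusted p = 0.611). Between LZ and DZ it was 0.17 ± 0.38 in cKO cells (adjusted p = 0.840) and 0.57 ± 0.38 in control cells (adjusted p = 0.451).

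Cdkn2d (ENSMUSG00000096472, chr9:21288459-21291421), which encodes the INK4 inhibitor p19, was lower in the LZ than in the DZ to a like extent in both genotypes. In cKO cells it had 95.9, 93.9, 96.9 and 111 CPM in LZ libraries, against 124, 134, 129.8 and 150.2 CPM in DZ libraries. In control cells it had 81.9, 86.6, 83.3 and 98.4 CPM in LZ libraries, against 125, 100.3, 114 and 131 CPM in DZ libraries. No LZ library reached the lowest DZ library of its genotype. The means were 99.5 ± 8.03 CPM in LZ cKO and 134 ± 11.2 CPM in DZ cKO cells, a change of -0.43 ± 0.096 (edgeR adjusted p = 0.00985). They were 87.6 ± 7.5 CPM in LZ control and 118 ± 13.4 CPM in DZ control cells, a change of -0.43 ± 0.096 (adjusted p = 0.0121). The control call was lost without DZ control library 4 (-0.37, adjusted p = 0.0523), and the cKO call without sort day 2 (-0.41, adjusted p = 0.0638). Within 1 sex the change in cKO cells was -0.43 in males (adjusted p = 0.164) and -0.43 in females (adjusted p = 0.172). In control cells it was -0.41 in males (adjusted p = 0.231) and -0.42 in females (adjusted p = 0.210). Between genotypes the change was 0.19 ± 0.096 in the LZ, with cKO higher on 4 of 4 days, and 0.19 ± 0.096 in the DZ, with cKO higher on 3 of 4 days (adjusted p = 0.429 and 0.485).

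Cdkn2c (ENSMUSG00000028551, chr4:109660876-109666756), which encodes the INK4 inhibitor p18, was lower in the LZ than in the DZ on 4 of 4 days in each genotype, without passing the test. In cKO cells it had 68.9, 62.1, 91.5 and 110.3 CPM in LZ libraries, against 93.8, 83.9, 121 and 118 CPM in DZ libraries. In control cells it had 83.5, 82.0, 98.7 and 107 CPM in LZ libraries, against 91.3, 103, 109.6 and 124 CPM in DZ libraries. The zone change was -0.33 ± 0.17 in cKO cells (edgeR adjusted p = 0.281) and -0.21 ± 0.17 in control cells (adjusted p = 0.578). With the sort-day block the change in cKO cells was -0.34 and was called (adjusted p = 0.0159). The change between genotypes was -0.16 ± 0.17 in the LZ (adjusted p = 0.786) and -0.04 ± 0.17 in the DZ (adjusted p = 0.969).

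**Figure D3:**
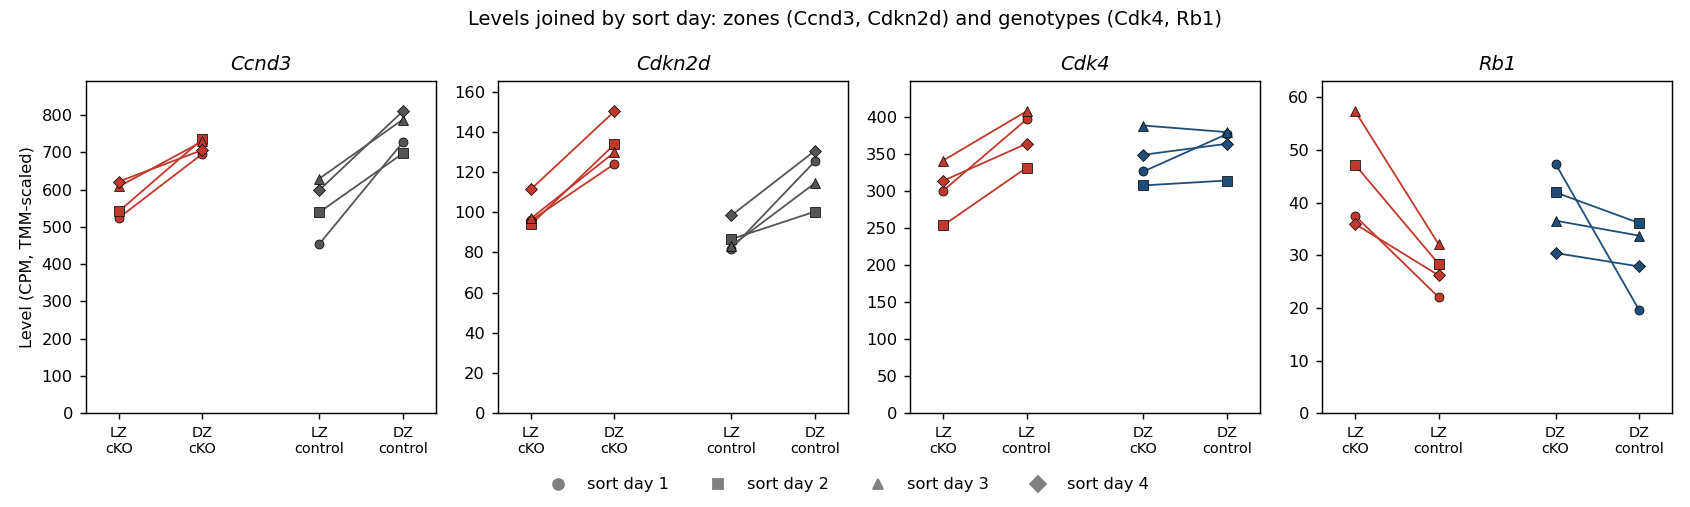
Levels in CPM (vertical axes, from 0) with libraries of 1 sort day joined, between zones within a genotype for Ccnd3 and Cdkn2d and between genotypes within a zone for Cdk4 and Rb1. All 8 lines of Ccnd3 and of Cdkn2d run higher in the DZ, while in the LZ pairs all 4 lines of Cdk4 are lower and all 4 of Rb1 higher in cKO.

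Rb1 (ENSMUSG00000022105, chr14:73192858-73325951), the retinoblastoma protein that holds E2F factors inactive, had the only levels among the 10 genes that did not overlap between genotypes. It had 37.5, 47.2, 57.4 and 36.0 CPM in LZ cKO libraries, against 22, 28.4, 32.1 and 26.2 CPM in LZ control libraries. Ranges that do not overlap were found for 8.65% of all genes in that comparison and for 6.38% in the DZ comparison, where none of the 10 genes had them. The mean was 44.5 ± 9.92 CPM in LZ cKO cells, 1.64 times the 27.2 ± 4.21 CPM in LZ control cells. The change of 0.71 ± 0.20 did not pass in edgeR without the block (adjusted p = 0.113), and passed with it (0.70, adjusted p = 0.0324) and in DESeq2 (0.71, adjusted p = 0.0222). Over the 16 fits that each left out 1 library, the change was 0.57 to 0.80 and the adjusted p 0.0654 to 0.260. In the DZ Rb1 had 47.4, 42.0, 36.6 and 30.4 CPM in cKO libraries, against 19.6, 36.1, 33.7 and 27.9 CPM in control libraries. The cKO value was the higher one on 4 of 4 days, with overlapping ranges and a change of 0.41 ± 0.20 (edgeR adjusted p = 0.460). The change between LZ and DZ was 0.19 ± 0.20 in cKO cells (adjusted p = 0.644) and -0.11 ± 0.20 in control cells (adjusted p = 0.841). Lpar6 and Mir687 lie inside the Rb1 span, so reads at Lpar6 may have been left out as ambiguous between genes.

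Rbl1 (ENSMUSG00000027641, chr2:157145893-157204534), the pocket protein p107 and itself known as an E2F target, was lower in cKO than in control cells on 4 of 4 days in each zone. It had 70.4, 82.0, 131 and 117 CPM in LZ cKO libraries, against 117, 93.4, 138 and 161 CPM in LZ control libraries. In the DZ it had 119, 109.9, 139 and 111 CPM in cKO libraries, against 148, 135, 147 and 169 CPM in control libraries. The ranges overlapped in both zones. The changes of -0.35 ± 0.19 in the LZ (edgeR adjusted p = 0.448) and -0.32 ± 0.19 in the DZ (adjusted p = 0.564) did not pass, and neither did those between zones, -0.26 ± 0.19 in cKO and -0.23 ± 0.19 in control cells (adjusted p = 0.458 and 0.557).

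Ordering the 4 group means of each gene, neighbouring groups had overlapping libraries at every step for 9 of the 10 genes. Ccnd3 had 1 step without overlap, that between DZ cKO and LZ cKO cells. The share of all genes with such a step was not computed, so this is not read as particular to Ccnd3. Nor was the share of all genes on 1 side on 4 of 4 days, so such agreement is not read as particular to a gene. The median change over the 10 genes was -0.05 in the LZ and 0.08 in the DZ for cKO against control, where the medians over all genes tested were 0.02 and 0.01. It was -0.22 in cKO and -0.02 in control cells for LZ against DZ, where the medians over all genes were 0.00 in each. For the difference between the zone changes in cKO and in control cells, edgeR called 0 of 10 genes (0% of all genes tested), with 1 at an unadjusted p under 0.05 (Cdkn1a), where 2.95% of all genes lay under it, and 0 called by DESeq2, which called 0.0253% of all genes.

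The genes whose pattern over the 16 libraries was most like that of Ccnd3, among 9021 candidates, were Gdi2, Appbp2 and Lsm14a. Their root mean square differences in centred log2 CPM from Ccnd3 were 0.067, 0.090 and 0.095, where the median over candidates was 0.323. For Cdkn2d they were Gm13509, Dhrs4 and Grhpr, at 0.092, 0.109 and 0.110, where the median was 0.353.

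Upstream and downstream of these genes, 5 lists drawn from the pathway were read in the same fit. They were 14 partner cyclins, kinases and further inhibitors (13 tested, Ccna1 did not pass the filter), 17 genes of the pocket protein and E2F complexes, 15 of protein turnover, 12 transcription factors that act on the 10 genes, and 30 E2F target genes of DNA synthesis. For cKO against control in the LZ, edgeR called 0 genes in each of the 5 lists, and so did DESeq2. The counts at an unadjusted p under 0.05 were 1 of 13 partners, 2 of 17 pocket and E2F genes, 1 of 15 turnover genes, 0 of 12 transcription factors and 11 of 30 E2F targets, where 13.4% of all genes lay under it. The E2F targets had a median change of -0.35, with 30 of 30 values negative, where the median of all genes was 0.02. The smallest adjusted p among them was that of Prim1, a primase subunit, with 90.9 ± 23.4 CPM in LZ cKO and 128 ± 17.9 CPM in LZ control cells (-0.50 ± 0.16, adjusted p = 0.171). With the sort-day block 11 of the 30 were called, all lower, where 5.5% of all genes were called, among them Pcna (-0.48, adjusted p = 0.00722), the sliding clamp of DNA replication. In the same zone E2f1, an activating E2F, had 79.4 ± 12.8 CPM in cKO and 100.8 ± 4.18 CPM in control cells (-0.34 ± 0.12, adjusted p = 0.202), and Ccne1, cyclin E1, had 45.6 ± 13.9 CPM in cKO and 62.0 ± 3.42 CPM in control cells (-0.44 ± 0.17, adjusted p = 0.254). Both were called with the block (adjusted p = 0.0253 and 0.0421), as was Cks1b, a cofactor in p27 turnover (-0.53, adjusted p = 0.0277). Tcf3 had the smallest adjusted p of the transcription factors (-0.18 ± 0.095, adjusted p = 0.439).

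For cKO against control in the DZ, edgeR and DESeq2 each called 0 genes in each of the 5 lists, and without the block the counts at an unadjusted p under 0.05 were 0, 3, 1, 2 and 1 in the order given, where 11.4% of all genes lay under it. The E2F targets had a median change of -0.17, with 26 of 30 values negative, and the smallest adjusted p was that of Ung, a uracil glycosylase (-0.47 ± 0.22, adjusted p = 0.436). Foxo1, a transcription factor of DZ cells, had 249.5 ± 30.3 CPM in cKO and 309 ± 35.3 CPM in control cells (-0.31 ± 0.12, adjusted p = 0.316), and was called with the block (adjusted p = 0.00973). Lin37 had the smallest adjusted p of the pocket and E2F genes (-0.31 ± 0.096, adjusted p = 0.182), Ambra1, which targets D-type cyclins for degradation, that of the turnover genes (0.39 ± 0.16, adjusted p = 0.355), and Ccne1 that of the partners (-0.16 ± 0.17, adjusted p = 0.811).

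Between zones in cKO cells, 0 partners, 0 pocket and E2F genes, 3 turnover genes and 2 transcription factors were called. Myc was higher in the LZ, with 129 ± 27.0 CPM in LZ cKO and 68.4 ± 13.7 CPM in DZ cKO cells (0.92 ± 0.16, edgeR adjusted p = 0.00172). Lower in the LZ were Tcf3, the E-box factor E2A (-0.49 ± 0.095, adjusted p = 0.00372), Cks1b (-0.86 ± 0.21, adjusted p = 0.0161) and Fzr1, an activator of the anaphase-promoting complex (-0.39 ± 0.11, adjusted p = 0.0326). Fbxo4, an F-box protein reported to bind D-type cyclins, was higher (0.39 ± 0.11, adjusted p = 0.0466). At an unadjusted p under 0.05, where 23.2% of all genes lay, there were 4 partners and 1 pocket and E2F gene, and DESeq2 called 2 and 1. Cdk1 (-0.72 ± 0.24, adjusted p = 0.0729) and Tfdp1 (-0.40 ± 0.15, adjusted p = 0.109) had the smallest adjusted p in those lists. Of the 30 E2F targets 29 values were negative, with a median of -0.41. Without the block 1 was called by edgeR and 6 by DESeq2, and 21 were called by edgeR with the block, all of them lower, where 9.09%, 13.8% and 17.3% of all genes were called. With the block 6 of 13 partners were called, all lower.

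Between zones in control cells, Myc and Tcf3 were called among the transcription factors, and 0 partners, 0 pocket and E2F genes and 0 turnover genes. Myc had 132 ± 12.9 CPM in LZ control and 56.1 ± 5.81 CPM in DZ control cells (1.23 ± 0.16, edgeR adjusted p = 0.000183). Tcf3 changed by -0.47 ± 0.095 (adjusted p = 0.00562). At an unadjusted p under 0.05, where 19.9% of all genes lay, there were 1 partner, 1 pocket and E2F gene and 6 turnover genes, and DESeq2 called 0, 1 and 0. The smallest adjusted p in these lists was that of Ccna2 (-0.53 ± 0.24, adjusted p = 0.233), Tfdp2 (-0.77 ± 0.24, adjusted p = 0.0667) and Fbxo4 (0.32 ± 0.11, adjusted p = 0.111). The E2F targets had a median of -0.20, with 28 of 30 values negative. Without the block 1 was called by edgeR and 1 by DESeq2, and 4 were called by edgeR with the block, all lower, where 7.49%, 10.9% and 13.7% of all genes were called. With the block 4 of 13 partners were called in control cells too, all lower. For the difference between the zone changes, edgeR called 0 genes in the 5 lists, with 0 at an unadjusted p under 0.05 and 0 called by DESeq2. Its median over the E2F targets was -0.19, with 29 of 30 values negative, where the median of all genes was -0.01. Over all 15789 genes, negative values numbered 7505 and 7622 between genotypes in the LZ and DZ. They numbered 7904 and 7900 between zones in cKO and control cells, and 8053 for this difference. No test was made of these sign counts.

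PTBP1 crosslink sites from LPS-cultured B cells were read along the same genes. These cells are not germinal centre cells, and no control immunoprecipitation was used here, so the sites are a description. The authors called 244659 sites from the summed cDNA counts of 5 libraries, each site 1 base wide, and 72.6% of them rested on 1 cDNA. At least 1 site on the gene's strand was found in 8 of the 10 genes, where 49.3% of 10430 tested genes with a RefSeq span and strand had one. The 8 genes held 479 sites and 673 cDNAs, with 0 sites on the other strand. For Ccnd2 and Rb1 the strand itself was read from the sites, so any site counted for them, and neither is among the 10430 genes. Spans ran from 2.96 kb (Cdkn2d) to 190 kb (Cdk6). The count was not matched for span length, so it is not read as enrichment. The inhibitors Cdkn2c and Cdkn2d held no site, while Cdkn1a held 2 sites with 3 cDNAs and Cdkn1b held 2 sites with 2 cDNAs. Site counts were not corrected for transcript level, and exons and introns were not told apart here. Over the 10430 genes the median density was 0 sites per kb, so a gene with any site lies above every gene without one. Cdkn1a, with its 2 sites, lay above 68.0% of them. The shares of genes with a lower density given below include the genes without a site.

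Ccnd2 held 133 sites with 204 cDNAs, or 4.92 sites per kb of span, and 98.7% of the tested genes had a lower density. Its strongest site, at chr6:127149021 and 3.17 kb from the gene's start, had 9 cDNAs and was present in 2 of the 5 replicate lists. Its largest cluster (sites within 15 bases of each other), chr6:127150879-127151009, held 37 sites and 53 cDNAs, lay where 9330179D12Rik overlaps the gene, and had a site in 0 replicate lists. Split into 4 equal stretches from 5′ to 3′, the span held 45, 10, 9 and 69 sites. Ccnd3 held 32 sites with 48 cDNAs (0.338 per kb, above 74.4% of genes). Its strongest site, at chr17:47599074, had 15 cDNAs, lay 0.615 kb from the 3′ end and was present in 2 replicate lists, and the 8-base cluster around it held 43.8% of the gene's cDNAs.

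Cdk4 held 15 sites with 35 cDNAs, or 4.00 sites per kb, above 98.3% of the tested genes. Its strongest site, at chr10:127065243 and 1.71 kb from the start, had 11 cDNAs and was present in 3 replicate lists. The 10-base cluster at chr10:127065238-127065247 held 21 cDNAs, 60.0% of those on the gene. Cdk6 held 84 sites with 111 cDNAs (0.442 per kb, above 78.3% of genes), and its largest cluster, chr5:3527874-3527902, held 16 cDNAs, lay 3.12 kb from the 3′ end and had a site in 3 replicate lists. Rb1 held 187 sites with 235 cDNAs (1.41 per kb, above 92.9% of genes), of which 148 rested on 1 cDNA. Its strongest sites had 3 cDNAs each, and 99 sites lay in stretch 3 of 4. Rbl1 held 24 sites with 35 cDNAs (0.409 per kb, above 77.3% of genes), 0 of them in stretches 3 and 4. Cdk4 and Cdk6 were the only members with a site in at least 3 of the 5 replicate lists, at the same position or within 15 bases. The share of all genes with such a site was not computed, so this is not read as particular to them.

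**Figure D4:**
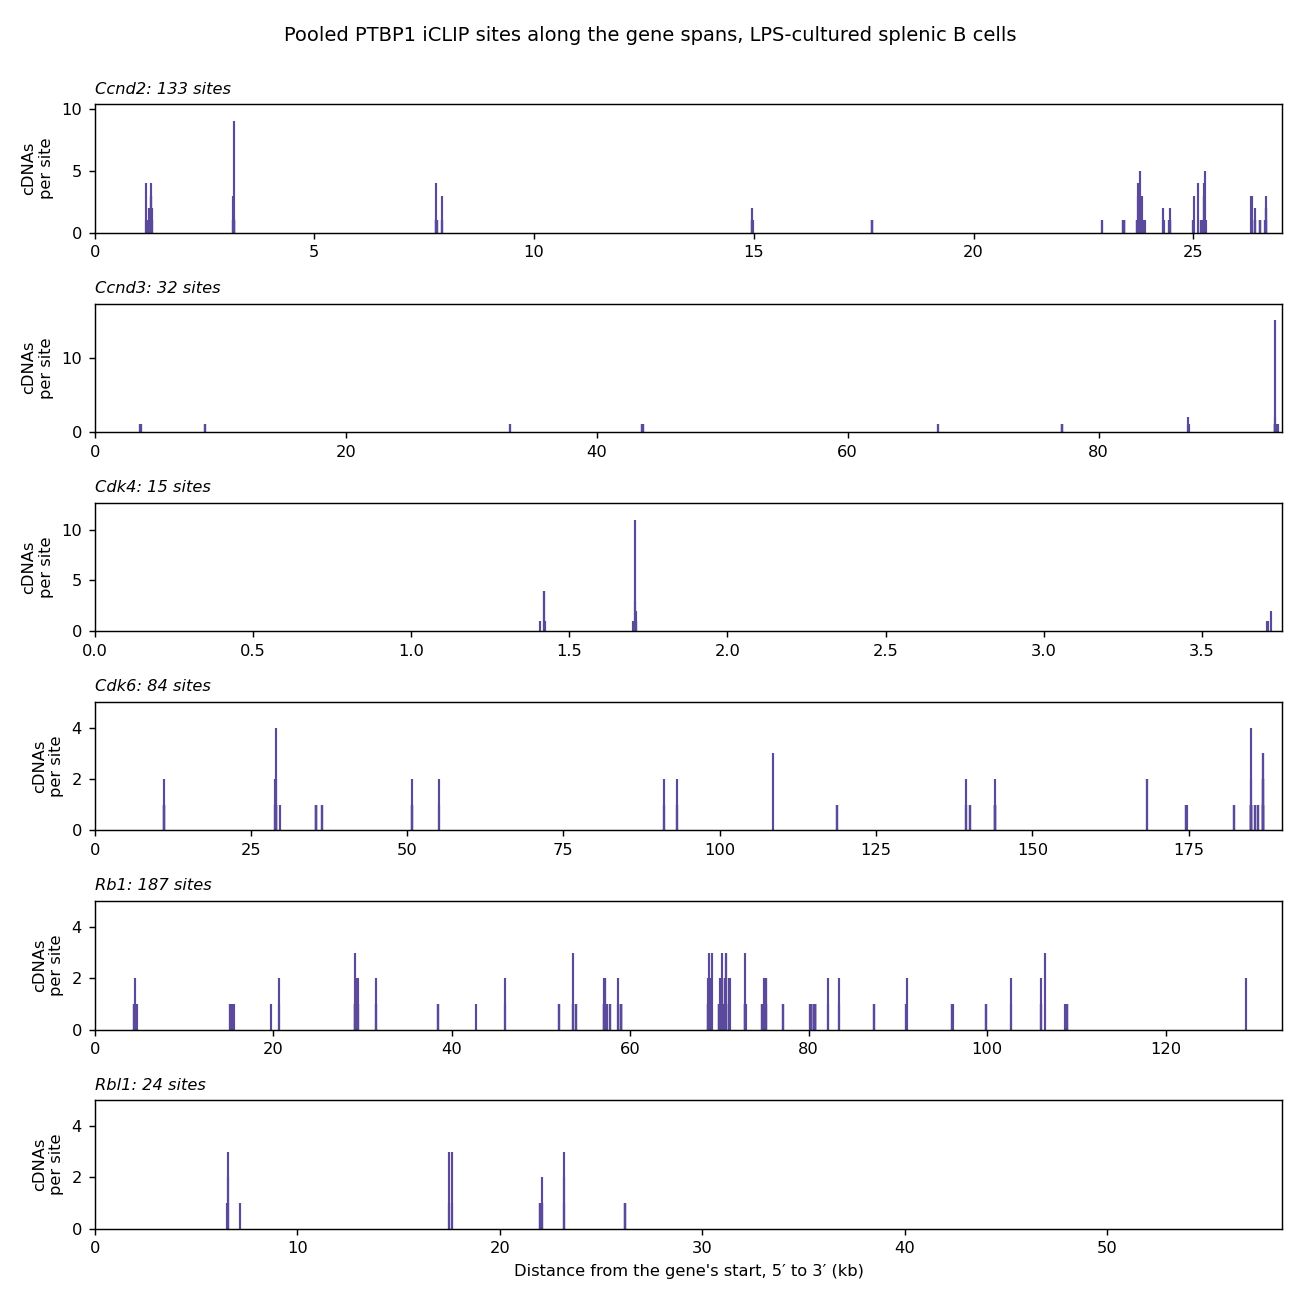
PTBP1 crosslink sites of the pooled list along 6 genes, with distance from the gene's start in kb (horizontal axes) and cDNAs per site (vertical axes, from 0). Cdk4 and Ccnd3 each have 1 position above 10 cDNAs, Ccnd2 has sites near both ends, and Rb1 has many sites of 1 to 3 cDNAs.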

How the data were processed

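The 16 mRNA files hold raw counts per Ensembl gene identifier as deposited, made with Trim Galore 0.4.2, HISAT2 and HTSeq on GRCm38 per the submitters' processing notes. The sources used here give no strand setting or annotation release. Per the labels' protocols, cDNA was made from polyadenylated RNA with a low-input kit. The 5 lines per file that name no gene, 41.4% to 49.8% of all entries, were left out. They include the reads counted as ambiguous between genes. Of 47729 identifiers, 47224 matched a symbol. The iCLIP lists hold a score per site, a signed cDNA count not scaled to depth, and per the file headers the authors kept sites at a false discovery rate under 0.05 within 15 nt on mm10. The deposited pooled list summed 5 replicates.

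Genes kept by filterByExpr (minimum count 10) were scaled by TMM and tested two-sided with the robust quasi-likelihood fit of edgeR 4.0.16 (R 4.3.3), with 4 group means over all 16 libraries and Benjamini-Hochberg adjustment over 15789 genes. The common biological coefficient of variation was 40.3%. Standard errors are the log2 fold change over the root of F, and 95% intervals use its t quantile. The 5 comparisons set cKO against control within a zone, LZ against DZ within a genotype, and the zone changes of both genotypes against each other (cKO zone change minus control zone change). The edgeR step was checked on simulated counts. Libraries of 1 group differed beyond sampling noise (chi-square per degree of freedom 22.2 to 167), so each was 1 replicate.

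The replicate number is the sort day per the labels, and LZ and DZ libraries of 1 number and genotype share a pool. The numbers therefore pair libraries. The main fit used no pairing, and the block fit used the day but not the pool. Deviations of same-numbered libraries from their group means correlated at 0.0944 to 0.39, and 23 of 24 correlated best with their own number. Alternatives were RLE and upper-quartile scaling, no filter, the sort-day block, only the 2 groups compared, DESeq2 1.42.0, each sex alone, each library left out, and, added after the data were seen, leaving out sort day 2, whose libraries had the highest macrophage and natural killer marker sums.

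The 10 genes, the 5 pathway lists and the markers were chosen with earlier results of these data known. All 10 genes are named in the 4 comparisons of zones and genotypes. Of each pathway list the rule names up to 4 called genes (largest change) or, where none was called, the gene with the smallest adjusted p. For the interaction all list genes shared 1 adjusted p and none is named. Genes called only with the block, such as Pcna, were chosen after their values were seen. Some genes of the E2F target list, among them the 1 called between zones, are not reported here by name. Pattern likeness was the root mean square difference of centred log2 CPM. Genome sequence and exon annotation were not used here, so levels are not compared between genes. RefSeq GRCm38.p6 gave spans and promoters.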

Additional observations from a re-analysis of the deposited data

Results flagged for a closer look

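Cdkn2d in LZ cKO library 4 stood apart from the rest of its group, with 111 CPM against 93.9, 95.9 and 96.9 CPM in the other 3 libraries. The gap to the nearest library was 0.83 of the group's range, just over Dixon's critical value for 4 libraries. Of 40 groups of 4 libraries examined, 1 was singled out, and chance singles out about 1 in 20.

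Cdk4 was lower in the LZ than in the DZ on each sort day in cKO cells, with log2 differences of -0.12, -0.279, -0.188 and -0.154, and not lower on any day in control cells, with 0.074, 0.077, 0.103 and 0.0. The difference between the zone changes was -0.247 and did not pass the edgeR test (adjusted p = 0.9998).

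Cdkn1a was lower in the LZ than in the DZ on each sort day in cKO cells, with log2 differences of -0.917, -1.139, -1.856 and -0.113, and higher on each day in control cells, with 0.939, 0.436, 0.811 and 0.721. The difference was -1.67 (edgeR unadjusted p = 0.0243, adjusted p = 0.9998) and did not pass. The levels behind it were 1.19 to 4.14 CPM in LZ cKO, 2.52 to 5.2 CPM in LZ control, 2.87 to 9.12 CPM in DZ cKO and 1.31 to 3.69 CPM in DZ control libraries. The share of all genes with a day pattern like that of Cdk4 or Cdkn1a was not computed.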

How the results depend on the processing

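Over 25 settings, 1167 of 1240 values of the 10 genes kept their direction and their side of the threshold, 27 lost a call, 6 gained one and 40 changed sign, all 40 for changes that were not called. In the LZ the count of called genes between genotypes was 0, and it was 2 with the sort-day block and 1 with DESeq2. Among all genes it was 171, against 868 with the block, 564 with DESeq2 and 25 without sort day 2, and in the DZ 99, against 517, 432 and 34. Between zones in cKO cells the count of the 10 was 2, against 4 with the block, 1 without the filter, 1 with only the 2 groups compared, 0 within males, 0 within females and 0 without sort day 2 (Ccnd3 -0.28, adjusted p = 0.255, and Cdkn2d -0.41, adjusted p = 0.0638), and 1 to 2 with 1 library left out. In control cells it was 2, against 0 within males, 0 within females, 1 without sort day 2 (Ccnd3 lost, -0.47, adjusted p = 0.0528), and 1 to 2 with 1 library left out (1 without DZ control library 4). Among all genes the count between zones in cKO cells was 1436, against 2727 with the block and 1123 without the filter. It was 820 with only the 2 groups compared, 451 within males, 364 within females and 716 without sort day 2. With 1 library left out it was 833 to 1459. For control cells it was 1183, against 288 within males, 257 within females, 690 without sort day 2, and 753 to 1213 with 1 library left out. The block changed no other call of the 10 genes than those of Rb1, Cdk4, Cdkn2c and Ccnd2 given above. Members with an iCLIP site numbered 8, against 2 at sites of at least 10 cDNAs, 2 at sites in at least 3 lists at the same position and 2 within 15 bases. The share of all genes was not computed at these stricter cuts, so the drop is not read as particular to the 10 genes. The replicate lists held 6211 to 45505 sites each, against 244659 in the pooled list. Signs changed for cKO against control in the LZ for Ccnd3 (-0.01 within females, -0.04 to 0.11 with 1 library left out), Ccnd2 (-0.19 to 0.44) and Cdkn1b (-0.02 to 0.50). In the DZ they changed for Ccnd3 (0.01 within males), Cdk6 (0.21 within females, 0.11 without sort day 2, -0.19 to 0.02 with 1 library left out) and Cdkn2c (0.03 in both settings, -0.13 to 0.05). Between zones they changed in cKO cells for Ccnd2 (-0.05 within females, -0.07 to 0.54), Cdkn1b (-0.02 to 0.38) and Rb1 (-0.06 within males), and in control cells for Cdkn1b (-0.01 within females), Cdk6 (-0.07 to 0.18) and Rb1 (-0.26 to 0.00). For the interaction they changed for Cdkn1b (0.02 within females), Cdkn2c (-0.28 to 0.00), Cdkn2d (0.00 with upper-quartile scaling, 0.08 without sort day 2, -0.07 to 0.06 with 1 library left out) and Rbl1 (0.06 within females, -0.17 to 0.11). The cause of these changes was not tested. Settings that leave libraries out change both the number of libraries and which ones are used. Standard errors were 0.38 or more for Ccnd2, Cdkn1a and Cdkn1b in each comparison, so the intervals of their changes are wide.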
